A study of Homo sapiens with 4 samples.

Results

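The genes described here are 10 members of the cellular heat shock system, taken by name from the 60675 genes counted in LNCaP cells. They are the cytosolic HSP90 genes HSP90AA1 and HSP90AB1, the heat shock factors HSF1 and HSF2, the small heat shock genes HSPB1, HSPB8 and CRYAB, the co-chaperone gene BAG3, and the mitochondrial chaperonin genes HSPD1 and HSPE1. LNCaP is an androgen-responsive human prostate cancer line that was established from a lymph node metastasis. All cultures received 1 nM R1881, a synthetic androgen, for 72 h, in medium with hormone-depleted serum. In the R1881 + vehicle group (n = 2) the androgen was given with DMSO, and in the R1881 + CPI-455 group (n = 2) with 50 µM CPI-455, an inhibitor of the KDM5 family of histone H3 lysine 4 demethylases. No library without androgen was part of the comparison, the cells are 1 cell line, and the sample labels and the methods of the study give different DMSO concentrations. The question put to these genes was whether their expression differed between androgen with and without the inhibitor.

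HSP90 proteins are ATP-driven chaperones that hold signalling proteins in a form that can be activated. Small heat shock proteins bind unfolding proteins without using ATP, BAG3 links HSPB8 and HSP70 to the autophagic removal of such proteins, and HSPD1 and HSPE1 form the folding chamber and its lid in the mitochondrial matrix. HSF1 is the main activator of the heat shock response, and it binds heat shock elements, arrays of inverted GAA units in the promoters of its target genes, while HSF2 can form mixed complexes with it.

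No promoter window of HSF1 or CRYAB was searched. The other 8 genes had 13 promoter windows in the RefSeq table used here (GRCh38.p14). Each window covered 250 bases before to 50 bases after a start site. They were searched on both strands for GAANNTTC and TTCNNGAA, which read the same on either strand, and for the longer forms GAANNTTC followed by NNGAA and TTCNNGAA followed by NNTTC, which are each other's reverse complement and contain the shorter motifs. Windows of 5 genes held at least 1 match, and 3 windows, those of HSP90AA1, HSP90AB1 and HSPD1, held a longer match. Of all 35116 windows in the table, 13.5% held at least 1 of the motifs and 0.49% held a longer one. The stretches of 30 bases that carry the matches upstream of the start are shown because the members differed in expression while sharing these letters. They are written 5′ to 3′ on the strand of the gene, with matching letters in capitals and positions counted from the RefSeq start site.
HSP90AA1, chr14:102087104-102087133, minus strand, positions -89 to -60: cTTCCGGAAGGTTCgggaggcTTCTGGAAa
HSP90AB1, chr6:44247773-44247802, plus strand, positions -170 to -141: gcaggTTCTGGAAGATTCatgggctccttc
HSP90AB1, chr6:44247826-44247855, plus strand, positions -117 to -88: gattgTTCTGGAAGCTTCtggattctggcg
HSPD1, chr2:197500061-197500090, minus strand, positions -250 to -221: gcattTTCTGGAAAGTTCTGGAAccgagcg
HSPB1, chr7:76302478-76302507, plus strand, positions -195 to -166: ttccttaacgagaGAAGGTTCcagatgagg
HSPB8, chr12:119178831-119178860, plus strand, positions -100 to -71: ttcatcacctccGAATATTCctgtgacagg

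The 2 HSP90 genes and HSPD1 carry their longer matches at only 1 of their start sites. The other start site of HSP90AA1 (window at chr14:102139700-102139999), both other start sites of HSP90AB1 and the HSPD1 start at 197500274 had no match. HSPD1 and HSPE1 lie head to head on chromosome 2, and the HSPD1 stretch falls between the HSPD1 start at 197499840 and the HSPE1 start at 197500379, outside the HSPE1 window. The windows of HSPE1, BAG3 and HSF2 held none of these letters. The stretches of HSP90AA1, HSPD1 and HSPB8 lie within exons that the deposited annotation gives to these genes. A match describes letters in the reference genome and not a bound site.

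Depth and RNA composition differed between the groups. The vehicle libraries held 19623553 and 20690819 counted fragments and the CPI-455 libraries 9522920 and 5401588, so that 3 counts corresponded to 0.137 to 0.142 CPM (counts scaled to library size) in the vehicle group and to 0.337 to 0.595 CPM with CPI-455. The long non-coding RNA MALAT1, which stays in the nucleus, took 0.0884% to 0.114% of the fragments with vehicle and 4.95% to 6.49% with CPI-455, and the genes of the mitochondrial genome 1.91% to 2.43% and 0.967% to 1.24%. The part of these differences in the results for the heat shock genes was not tested. All 9 LNCaP markers, among them KLK3, KLK2, TMPRSS2, FOLH1, HOXB13, KRT8 and KRT18, were detected in every library, and 8 of them fell and 1 rose. Summed markers of basal cells reached at most 1.24 CPM, of leukocytes 0.900 CPM and of endothelium 1.56 CPM, with KRT5 at 0 in every library. Summed stromal markers were between 4.30 and 5.21 CPM in the vehicle group, against between 10.2 and 10.7 CPM under CPI-455, nearly all COL1A1 except in CPI-455 replicate 2, and the part of this in the results was not tested. The study calls the libraries biological replicates without saying how the cultures were separated, so p-values measure the spread between these libraries only, and in bulk RNA a change in the number of expressing cells and in RNA per cell cannot be told apart.

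Expression was compared with edgeR's quasi-likelihood test across all 17600 genes that passed its filter on low counts, which included all 10 members. A gene is said here to rise or fall with CPI-455 when its FDR (Benjamini-Hochberg over all tested genes) was below 0.05, and is called when the change was also at least 2-fold, the threshold of the study. Log2 fold changes are CPI-455 over vehicle, so that positive values are higher with the inhibitor. HSPB1, HSP90AA1, CRYAB, HSPE1 and HSF1 were called higher, 5 of 10 members, beside 21.0% of all tested genes higher and 42.4% called in either direction. The 10 genes were chosen with earlier results of these data known, so these shares do not test the list. HSP90AB1 rose by less than 2-fold and HSPB8 fell by less than 2-fold, while HSPD1, HSF2 and BAG3 did not pass the test. Counted without a minimum fold, 6 members rose, beside 29.8% of all genes, and 1 fell, beside 32.8%, with 62.6% of all genes past the test in either direction. By edgeR 0 members were called lower, beside 21.3% of all genes, and DESeq2 also gave 0, and at an unadjusted p below 0.05 HSPB8 was the 1 member that was lower. The median log2 fold change of the 10 members was 1.01 against -0.04 over all tested genes and -0.21 over the 13813 protein-coding ones. In 9 of the 10 members the groups did not overlap in CPM, which was also so for 81.9% of all tested genes.

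**Figure D1:**
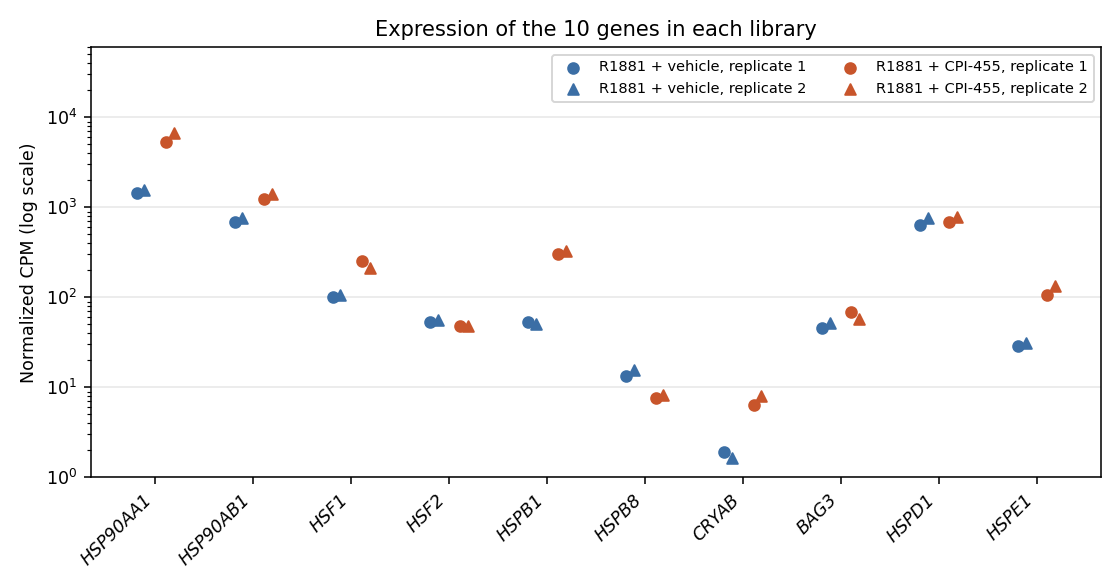
Normalized CPM (y axis, log scale) of the 10 genes (x axis) in each library, with circles for replicate 1 and triangles for replicate 2 and colours for R1881 + vehicle and R1881 + CPI-455. The CPI-455 points of HSP90AA1, HSPB1, CRYAB and HSPE1 lie well above the vehicle points, those of HSPB8 lie below them, and those of HSPD1 overlap them.

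HSP90AA1, which encodes the stress-inducible cytosolic HSP90, lies on the reverse strand of chromosome 14 of GRCh38 from 102080738 to 102139699 (ENSG00000080824). It had 30230 and 34356 counts in the vehicle libraries, against 47392 and 33817 under CPI-455, which is 1431 and 1573 normalized CPM in the vehicle libraries, against 5329 and 6705 under CPI-455. Both CPI-455 libraries lay more than 3-fold above both vehicle libraries, although their depth was lower. Expression was 4.01-fold higher, or 2.00 on the log2 scale (standard error 0.13, 95% interval 1.71 to 2.30, FDR = 2.46e-06). The gene took 0.154% and 0.166% of all counted fragments with vehicle and 0.498% and 0.626% with CPI-455. Among 13812 protein-coding genes ordered by expression per exon length, HSP90AA1 stood at rank 65 with vehicle and at rank 18 with CPI-455.

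HSP90AB1 encodes the constitutive cytosolic HSP90 and its locus spans, on the forward strand of chromosome 6, 44246166 to 44253888 (ENSG00000096384). Its expression was 691 and 761 CPM in the vehicle libraries, against 1230 and 1392 under CPI-455. The groups did not overlap, but the log2 fold change was 0.85, under 2-fold (standard error 0.11, 95% interval 0.60 to 1.10, FDR = 1.42e-04). Upper-quartile normalization, the scaling that gave the highest values, moved it to 1.03 and past the 2-fold threshold. On the scale of RPKM (CPM divided by exon length in kilobases), counted over exon bases that no other gene shares, HSP90AA1 was 1.22 times HSP90AB1 in each vehicle library and 2.56 and 2.84 times HSP90AB1 in the CPI-455 libraries. This ratio within a library does not depend on the scaling between libraries, and its mean was 1.14 higher on the log2 scale. With 2 libraries against 2 an exact permutation test cannot give a p below 0.333 (2-sided), so the ratios are given as values without a test.

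The heat shock factors differed from each other. HSF1, on chromosome 8 (ENSG00000185122), was expressed at 101 and 105 CPM in the vehicle libraries, against 253 and 210 under CPI-455. The lower CPI-455 library was still at about the double of the vehicle libraries, and the log2 fold change was 1.17 (standard error 0.13, 95% interval 0.89 to 1.45, FDR = 4.09e-05). Its interval reaches below the 2-fold threshold, and the call was lost with library totals as the only scaling (0.98) and in edgeR's glmTreat, which tests against a 2-fold change (FDR = 0.101). HSF2, on chromosome 6 from 122399546 to 122433119 (ENSG00000025156), was expressed at 53.2 and 56.0 CPM with vehicle and at 48.2 CPM in both CPI-455 libraries. Its log2 fold change of -0.18 (standard error 0.13, 95% interval -0.48 to 0.12, FDR = 0.269) did not pass the test, and the interval leaves room for a fall of up to 0.48 on the log2 scale. With library totals as the only scaling HSF2 passed the test at -0.37 (FDR = 0.0356). Per exon length the 2 factors were nearly equal with vehicle, with HSF1 at 0.991 and 0.981 times HSF2, and HSF1 was 2.74 and 2.28 times HSF2 with CPI-455.

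HSPB1, which encodes HSP27, an actin-protecting small heat shock protein, had the largest log2 fold change of the 10 genes except with the length and GC trend removed, where HSP90AA1 was higher at 2.21. It lies on chromosome 7 from 76302544 to 76304295 (ENSG00000106211) and had 1122 and 1105 counts in the vehicle libraries, against 2728 and 1643 under CPI-455. Its expression was 53.1 and 50.6 CPM in the vehicle libraries, against 307 and 326 under CPI-455, a 6.10-fold difference with replicates within a few percent of each other. The log2 fold change was 2.61 (standard error 0.12, 95% interval 2.35 to 2.87, FDR = 5.83e-07). Once the smooth relation of the counts to length and GC content of the exons had been removed, it was 1.92, over 1.5 times less on the linear scale, and it remained called (FDR = 1.04e-06). The summed exon length of HSPB1, 1634 bases with a GC content of 63.2%, is the shortest of the 10 genes. The rank of HSPB1 among protein-coding genes per exon length was 1358 with vehicle and 164 with CPI-455.

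CRYAB encodes alphaB-crystallin, a small heat shock protein known from lens and muscle, and it was the lowest of the 10 genes with vehicle. On chromosome 11 from 111908565 to 111923722 (ENSG00000109846), it had 40 and 36 counts in the vehicle libraries, against 57 and 40 under CPI-455. Scaled to depth, this was 1.89 and 1.65 CPM in the vehicle libraries, against 6.41 and 7.93 under CPI-455. The log2 fold change of 2.00 was as large as that of HSP90AA1 but was known less precisely (standard error 0.40, 95% interval 1.11 to 2.89, FDR = 0.00181). Of its exon bases 20.6% are shared with HSPB2 and its read-through gene on the other strand, and fragments there were not counted.

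HSPB8 encodes a small heat shock protein that works with BAG3, and it changed in the opposite direction from HSPB1 and CRYAB. It lies on chromosome 12 from 119178642 to 119221131 (ENSG00000152137) and had 282 and 344 counts in the vehicle libraries, against 67 and 41 under CPI-455. Expression was 13.4 and 15.8 CPM in the vehicle libraries, against 7.53 and 8.13 under CPI-455, without overlap. The log2 fold change was -0.90 (standard error 0.24, 95% interval -1.45 to -0.35, FDR = 0.00991). The fall did not pass the test without vehicle replicate 1 (log2 fold change -1.03, FDR = 0.0544) or without vehicle replicate 2 (-0.80, FDR = 0.177), and it went past 2-fold with library totals as the only scaling (-1.09). The ratio of HSPB1 to HSPB8 per exon length was 6.96 and 5.62 in the vehicle libraries, against 71.3 and 70.1 under CPI-455.

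BAG3, on chromosome 10 from 119651370 to 119677819 (ENSG00000151929), was expressed at 46.1 and 52.6 CPM in the vehicle libraries, against 68.3 and 57.5 under CPI-455. The CPI-455 libraries were both higher, at a mean of 62.9 ± 7.61 CPM (SD, n = 2) against 49.3 ± 4.63 with vehicle. The log2 fold change of 0.36 (standard error 0.15, 95% interval 0.02 to 0.69) missed the threshold narrowly with FDR = 0.0604. BAG3 passed it in 5 of 18 alternatives, with RLE size factors (FDR = 0.0451), upper-quartile normalization (0.0105), at least 10 counts in every library (0.0312), the likelihood-ratio test with the filter (0.0383) and without CPI-455 replicate 2 (0.00145), while with the length and GC trend removed its value was 0.03 (FDR = 0.862). BAG3 was 3.59 and 3.48 times HSPB8 per exon length with vehicle and 9.43 and 7.36 times HSPB8 with CPI-455.

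**Figure D2:**
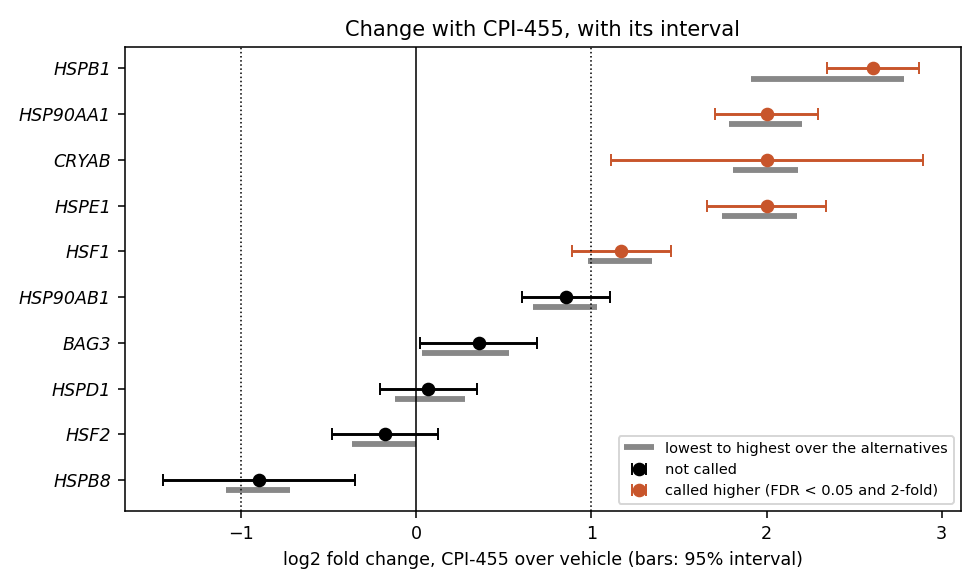
Log2 fold change of each gene, CPI-455 over vehicle (x axis), with its 95% interval from edgeR's quasi-likelihood test, in orange where called higher and in black where not called. Grey bars run from the lowest to the highest value over 18 alternative settings, and dotted lines mark a 2-fold change. The values run from -0.90 for HSPB8 to 2.61 for HSPB1, and the grey bars of HSPD1 cross 0.

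HSPD1 and HSPE1 encode HSP60 and HSP10, which work as 1 chaperonin. In the deposited annotation the span of HSPE1 lies within that of HSPD1, on the other strand. HSPD1 (ENSG00000144381, chromosome 2 from 197486581 to 197516737, reverse strand) was expressed at 635 and 757 CPM in the vehicle libraries, against 681 and 778 under CPI-455. The groups overlapped, and the log2 fold change of 0.07 (standard error 0.12, 95% interval -0.21 to 0.35, FDR = 0.654) did not pass the test. Its sign depended on the processing, with -0.12 under library totals alone (FDR = 0.397) and 0.27 with the length and GC trend removed (FDR = 0.0385). HSPE1 (ENSG00000115541, from 197499994 to 197503457, forward strand) had 609 and 679 counts in the vehicle libraries, against 943 and 679 under CPI-455, or 28.8 and 31.1 CPM in the vehicle libraries, against 106 and 135 under CPI-455. Its log2 fold change was 2.00 (standard error 0.15, 95% interval 1.66 to 2.34, FDR = 5.40e-06). The ratio of HSPD1 to HSPE1 per unshared exon length was 8.36 and 9.23 in the vehicle libraries, against 2.44 and 2.19 under CPI-455.

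The counts of HSPE1 are limited by its neighbours and copies. Of its exon bases 23.9% are shared with HSPD1 or the read-through gene HSPE1-MOB4, and fragments there were not counted. The annotation also lists 26 pseudogene copies of HSPE1 and 18 of HSPD1, and fragments that match a gene and a copy equally well were left out of both. The copies themselves held few fragments, with 11 and 8 over all HSPE1 copies with vehicle and 1 and 3 with CPI-455, and 22 and 23 over all HSPD1 copies with vehicle and 7 and 10 with CPI-455. HSPE1-MOB4 had 0 and 4 counts in the vehicle libraries, against 0 and 6 under CPI-455. The 5 further genes named HSP90AA held 8 and 15 counts in the vehicle libraries, against 27 and 13 under CPI-455, and the 6 further genes named HSP90AB held 15 and 15 in the vehicle libraries, against 45 and 36 under CPI-455, which is below 1% of the counts of HSP90AA1 and HSP90AB1.

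Ordered by RPKM over unshared exons, HSP90AA1 at 297 ± 19.9 (SD, n = 2) and HSP90AB1 at 244 ± 16.5 were the highest members with vehicle, followed by HSPD1 at 176 ± 21.7 and HSPB1 at 31.7 ± 1.09. HSF2 (20.2 ± 0.729), HSF1 (19.9 ± 0.580) and HSPE1 (19.9 ± 1.06) did not differ beyond their spread, with BAG3 next at 18.0 ± 1.68, then HSPB8 at 5.09 ± 0.593 and CRYAB at 0.735 ± 0.0721. With CPI-455, HSP90AA1 stood at 1191 ± 193 and HSP90AB1 at 440 ± 38.3. HSPB1 at 194 ± 8.23 was then level with HSPD1 at 184 ± 17.3 within their spread. HSPE1 followed at 80.0 ± 13.4, HSF1 at 44.8 ± 5.86, BAG3 at 22.9 ± 2.77 and HSF2 at 17.8 ± 0.0155. CRYAB (2.98 ± 0.447) and HSPB8 (2.74 ± 0.147), the 2 lowest, overlapped with CPI-455. Together the 10 genes took 0.329% and 0.359% of all counted fragments with vehicle and 0.750% and 0.903% with CPI-455.

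**Figure D3:**
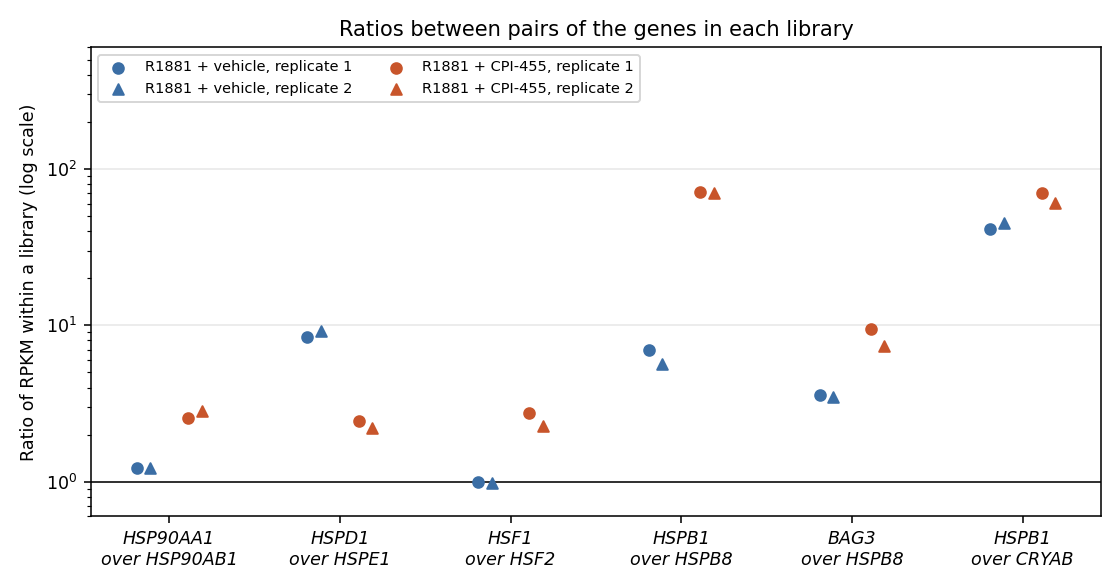
Ratio of RPKM over unshared exons between pairs of the genes (x axis) in each library (y axis, log scale), with circles for replicate 1 and triangles for replicate 2. HSPB1 over HSPB8 was 5.62 to 6.96 in the vehicle libraries and 70.1 to 71.3 under CPI-455, and HSPD1 over HSPE1 moved down from 8.36 and 9.23 to 2.19 and 2.44.

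A further 96 genes of the same system were listed by role, and 90 of them were tested. Of these, 22 were called higher and 19 lower, beside 21.0% and 21.3% of all tested genes, and their median log2 fold change was 0.12. Lists are described by their counts and medians, beside those of all genes, without a test of the list.

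Among 19 HSP90 paralogs and co-chaperones 11 rose and 3 fell, with 5 called higher and 2 lower (median log2 fold change 0.48). Of all tested genes 29.8% rose and 32.8% fell, with 21.0% called higher and 21.3% lower (median -0.04). CDC37, which delivers kinases to HSP90, rose from 136 ± 0.643 to 633 ± 43.2 CPM (SD, n = 2) (log2 fold change 2.22, FDR = 7.88e-07). PTGES3, the p23 that stabilizes the closed form of HSP90 (1.43), and STUB1, a ubiquitin ligase of HSP90 and HSP70 substrates (1.42), were also called higher, although STUB1 lost the call at 0.96 with the length and GC trend removed. FKBP5, an androgen-induced co-chaperone of steroid receptors, was called lower (-1.53, FDR = 7.92e-06). HSP90B1, the HSP90 of the endoplasmic reticulum, fell by less than 2-fold (-0.69, FDR = 6.35e-04), opposite to both cytosolic genes. CDC37L1 was called lower at just over 2-fold (FDR = 0.0108) and lost its call in 12 of 18 alternatives.

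The cytosolic chaperonin TRiC, which folds actin and tubulin, and prefoldin, which hands substrates to it, did not move as 1 block. Of 15 genes, 6 rose and 3 fell, beside 29.8% and 32.8% of all tested genes, with a median of 0.16. The 4 genes called higher, beside 21.0% of all tested genes, were the prefoldin subunits PFDN2 (2.26), PFDN5 (2.02), PFDN4 (1.56) and PFDN6 (1.27). PFDN2 moved to 1.12 and PFDN6 to 0.99 with the length and GC trend removed. Among the TRiC subunits CCT8 (0.59, FDR = 0.00163) and CCT4 (0.44, FDR = 0.00525), named after their values were seen, rose by less than 2-fold. CCT7 (-0.52, FDR = 0.00313) and CCT2 (-0.35, FDR = 0.0169) fell by less than 2-fold, and CCT6B, a testis form, was called lower (-2.15, FDR = 3.05e-04). Mitochondrial chaperones and proteases had a median of -0.53, with 3 of 12 genes risen and 7 fallen. Over all tested genes the median was -0.04, with 29.8% risen and 32.8% fallen. The nucleotide exchange factors of mitochondrial HSP70, GRPEL2 (-2.13, FDR = 2.12e-06) and GRPEL1 (-1.24, FDR = 5.86e-04), were called lower, and GRPEL1 reached -0.99 without CPI-455 replicate 2. The matrix protease gene CLPP (-0.73) and the inner membrane protease gene YME1L1 (-0.99) fell by less than 2-fold. Both went past 2-fold in some alternatives, CLPP with the length and GC trend removed (-1.24) and without CPI-455 replicate 1 (-1.02), and YME1L1 without a filter on low counts in either test, with library totals only (-1.18), without vehicle replicate 1 (-1.14) and without CPI-455 replicate 2 (-1.32). DNAJA3, a mitochondrial J protein (0.93), and the matrix protease gene LONP1 (0.33) rose by less than 2-fold, DNAJA3 passing 2-fold with upper-quartile normalization (1.11) and with the length and GC trend removed (1.06). TIMM44, an anchor of the import motor, was called higher at 1.08 but was 0.89 without CPI-455 replicate 1 and 0.91 with the length and GC trend removed.

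Other heat shock factors and regulators of HSF1 changed in both directions. HSF4, a factor known from the lens, was called higher, from 148 and 123 vehicle counts to 555 and 276 under CPI-455 (log2 fold change 3.22, FDR = 1.50e-06). HDAC6, a deacetylase that binds HSP90 and HSF1, was also called higher (2.37, FDR = 1.41e-06). The kinase gene GSK3B (-1.88), the acetyltransferase genes EP300 (-1.72) and CREBBP (-1.57) and the deacetylase gene SIRT1 (-1.63) were called lower. The list as a whole had 2 genes risen and 5 fallen of 10 tested, beside 29.8% and 32.8% of all tested genes. Its median was -0.28, against -0.04 over all tested genes. Of the other BAG genes BAG5 (-2.09) and BAG4 (-1.70) were called lower, BAG6 fell by less than 2-fold (-0.51), and the other two genes, BAG1 (0.28) and BAG2 (-0.21), did not pass the test and are named after their values were seen.

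Of 8 other small heat shock genes 3 passed the filter on low counts. IFT25, also called HSPB11, rose by 0.92 (FDR = 0.00100) and passed 2-fold with upper-quartile normalization (1.09), with the length and GC trend removed (1.10) and without CPI-455 replicate 1 (1.01). HSPB9 and HSPB6, named after their values were seen, changed in opposite directions, HSPB9 from 34 and 27 vehicle counts to 51 and 21 under CPI-455 (1.81, FDR = 0.00726) and HSPB6 from 19 and 18 counts to 0 and 0. With 3 counts per CPI-455 library as the limit, HSPB6 was at least 1.85-fold lower, and its fitted log2 fold change is no bound.

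The other classical targets of HSF1 included the largest rises of all lists. Of 16 genes, 10 rose and 4 fell, beside 29.8% and 32.8% of all tested genes. Called higher were 8 and called lower 2, beside 21.0% and 21.3%, and the median was 1.14 against -0.04. The HSP70 gene HSPA1B went from 1778 and 1634 vehicle counts to 42429 and 26604 under CPI-455 (log2 fold change 5.98, FDR = 7.20e-08), and its near-identical copy HSPA1A from 5 and 2 to 189 and 56 (6.58, and 7.30 without vehicle replicate 1). Because fragments that match both copies were left out, neither level is certain. DNAJB1, the HSP40 partner of HSP70, was called higher by 3.84. SERPINH1, a collagen chaperone (-1.24), and DNAJA1 (-1.12) were called lower, and SQSTM1, an autophagy receptor (-0.86), and HSPA4L (-0.57) fell by less than 2-fold, SQSTM1 passing 2-fold with library totals only (-1.05) and without a filter on low counts (-1.01).

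**Figure D4:**
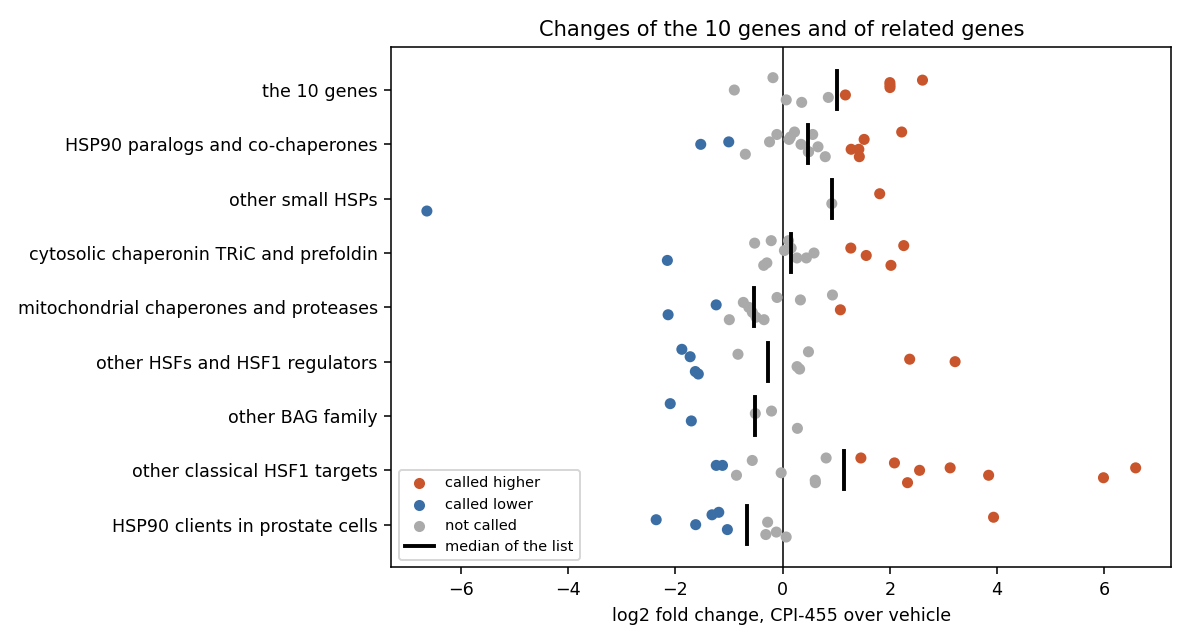
Log2 fold change, CPI-455 over vehicle (x axis), of each tested gene in the set of 10 and in 8 lists of related genes, with a black bar at the median of each list. Orange points are called higher, blue called lower and grey not called, and the point at the far left is HSPB6, whose fitted value is no bound because both CPI-455 libraries held 0 counts.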

How the data were processed

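RNA-seq of 4 LNCaP libraries was analysed. Groups and replicate numbers were taken from the sample titles. The authors trimmed reads with TrimGalore, aligned them to GRCh38 with STAR, and deposited raw counts of fragments per gene from featureCounts v1.5.0-p1 on Ensembl release 83, per the file headers. Strand was not used, and fragments with more than 1 matching place or gene were left out, which lowers genes with close copies or overlapping neighbours. How RNA was selected is not given in the sources used here.

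Symbols were matched by Ensembl identifier for 56558 of 60675 genes. Counts were compared in edgeR 4.0.16 (R 4.3.3) with TMM scaling, filterByExpr (minimum of 10 counts), glmQLFit and glmQLFTest without covariates. Standard errors are the log2 fold change over the square root of F. CPM uses the TMM-scaled library size, and RPKM also the exon bases not shared with another gene. The alternatives were other scalings and filters, DESeq2 1.42.0, edgeR's likelihood-ratio test and glmTreat, a stricter FDR, a replicate block, removal of a smooth length and GC trend (mgcv 1.9.3), and leaving out each library. On simulated counts 17141 genes were tested, of which 194 had been changed by 1.5 on the log2 scale. The test called 88.1% of these in the right direction and 3 other genes. The simulation gave all genes 1 common dispersion and changed few of them, up and down alike. In the data 42.4% of tested genes were called, so these rates do not give the accuracy of this comparison.

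The 10 genes and all lists were chosen with earlier results of these data known. Beside the 10 genes, up to 4 genes per list and direction are named, those with the largest change at an FDR below 0.05 and a mean log2 CPM of at least 2, together with KDM5 genes, MALAT1 and markers. Depth limits are for counting error only. Some genes named by this rule are not reported here.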

Additional observations from a re-analysis of the deposited data

How the results depend on the processing

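Of 180 values of the 10 genes under 18 alternatives, 174 stayed on their side of the threshold, 2 lost a call (both HSF1) and 4 gained one (HSP90AB1 and HSPB8). The count of members called lower went from 0 to 1 (HSPB8) with library totals only, without a filter on low counts, and in the likelihood-ratio test without a filter. In these settings the count of all genes called lower also went up, from 3756 to 4563, 4533 and 4915. Testing against a 2-fold change with glmTreat left 4 members with an FDR below 0.05 in place of 7, and called 2455 genes higher and 2350 lower in place of 3698 and 3756. Under library totals only, 4 members were called higher and 1 lower, against 5 and 0. Over all genes 3128 were then called higher and 4563 lower, against 3698 and 3756. TMM placed the median of all genes 0.19 above library totals and 0.18 below upper-quartile normalization on the log2 scale. With each library left out in turn, a group of 1 library is assumed to vary like the other group, so only effect sizes are given here. For the members called higher, the log2 fold change was 1.78 to 2.14 for HSP90AA1, 2.52 to 2.63 for HSPB1 and 1.81 to 2.14 for CRYAB. It was 1.78 to 2.15 for HSPE1 and 1.01 to 1.25 for HSF1. The deviations of same-numbered libraries had a correlation of 0.04 across genes. Counting noise also lowers such a value, so it cannot show whether the cultures were paired. With the replicate block 5 members were called higher and 0 lower, and 3422 genes higher and 3745 lower. Among the 48 other named genes no value changed sign in a call, 38 of 863 values lost a call and 20 gained one. The CPI-455 libraries' depth limits CRYAB and the genes below it.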

Other observations

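The 10 listed HSP90 client genes, whose proteins depend on HSP90 for folding, had 1 gene risen and 5 fallen, beside 29.8% and 32.8% of all tested genes, with a median log2 fold change of -0.67 against -0.04 over all tested genes. The glucocorticoid receptor gene NR3C1 (-1.62) and the receptor kinase genes MET (-1.32) and EGFR (-1.19) were called lower by edgeR, and MET was at -0.95 with the length and GC trend removed. TERT, the catalytic subunit of telomerase, was called higher (3.93), from 80 and 74 counts to 562 and 231. These are RNA levels and hold no measure of the client proteins.

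Of the genes the inhibitor is directed at, KDM5B was called lower (-1.07, edgeR FDR = 4.92e-05) and KDM5A rose by less than 2-fold (0.77), while KDM5C at 0.03 did not pass the test. With the length and GC trend removed, KDM5B was at -0.80 and not called, and KDM5A was at 1.10 and called higher (FDR = 9.96e-06). KDM5B also lost its call with upper-quartile normalization (-0.90), in glmTreat (FDR = 0.275) and with the replicate block added to the trend removal (-0.81).

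The protein-coding genes whose log2 CPM, centred per gene, lay nearest to that of HSP90AA1 over the 4 libraries were HSPE1, at a root-mean-square difference of 0.011, UQCRB at 0.033 and PDCD5 at 0.038. For HSF1 they were SFSWAP at 0.016, YEATS2 at 0.017 and CDC25C at 0.030. The 4 points share 2 groups and 1 scaling, so such closeness describes similar fold changes in these libraries.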
